A study of Mus musculus with 6 samples.

Results

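The genes described here are 9 epidermal kallikreins, Klk5, Klk6, Klk7, Klk8, Klk9, Klk10, Klk11, Klk13 and Klk14, and Spink5, which encodes LEKTI, an inhibitor of several of these proteases. They were picked by exact gene symbol, and each matched 1 of the 28853 transcript clusters of the array (a cluster is the set of probes for a gene), so all 10 were measured. The data are 6 Affymetrix MoGene 1.0 ST arrays of RNA from whole, intact digit tips of mice aged 8 weeks, 3 labelled wildtype (control) and 3 labelled K14-CreER;Ctnnb1 cKO (cKO). Ctnnb1 encodes beta-catenin, an adherens junction protein and the transducer of canonical Wnt signals, and K14-CreER is an inducible Cre recombinase driven by the keratin 14 promoter of basal epithelium. The deletion is therefore aimed at epithelium, and each value averages this with the other tissues of the tip, such as bone and dermis. The inducer, its dose and its timing are not given in the sources used here. The comparison asks which of these protease and inhibitor transcripts differ between the cKO and the control digit tips.

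Kallikreins are secreted serine proteases made as inactive precursors that other proteases, often other kallikreins, cut into active form. In the upper epidermis KLK5, KLK7 and KLK14 cleave the corneodesmosomes that hold dead cells of the horny layer together, and so allow these cells to be shed. LEKTI, the product of Spink5, holds these proteases in check, and loss of SPINK5 in humans causes Netherton syndrome, in which the skin barrier is shed too early.

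All values are log2 signals relative to the median of the 3 control arrays for the same gene, so a control median is 0 by construction. Such values carry no absolute level and no detection call, and levels of different genes cannot be compared. Differences are cKO minus control, with the standard error (SE) of limma, a moderated linear model for arrays, over 3 arrays per group. P-values were adjusted by the Benjamini-Hochberg method over 20793 genes, and a gene was called at an adjusted p under 0.05. The titles speak of biological replicates but do not name the animals, and p-values may therefore reflect technical spread only. Array medians over all clusters lay between -0.0086 and 0.0779. Ctnnb1 itself read 0, -0.19 and 0.59 on the control arrays against -1.10, -0.87 and -1.06 on the cKO arrays, a limma difference of -1.14 ± 0.24 (adjusted p = 0.0285). Its groups did not overlap, but the probes were not placed relative to the deleted exons here, and its adjusted p rose to 0.0795 and 0.138 when control replicates 1 and 3 were left out, and to 0.0944 and 0.148 without replicates 1 and 3 of the cKO.

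Of the 10 genes, limma called 2 higher in the cKO, Klk6 and Klk13, and 0 lower, and 8 did not pass. By unadjusted p under 0.05 there were 5 (Klk6, Klk13, Klk9, Klk10 and Klk11). An unpaired t-test, as named in the authors' file header, was also run over all genes tested with Benjamini-Hochberg adjustment. It is called the methods' t-test here, although the authors' methods text names an ANOVA. With 2 groups, a one-way ANOVA gives the same p-values as an unpaired t-test of equal variances. This t-test called 0 of 10 in either direction, while the authors' own table of significant clusters, made after their filters, held 3 of the 10. Over all genes tested, limma called 1.24% higher and 0.697% lower, and 12.5% had an unadjusted p under 0.05. The median difference of the 10 genes was 0.43, against -0.0044 over all genes. The cKO arrays all lay above the controls in 6 of the 10 (Klk6, Klk8, Klk9, Klk10, Klk11 and Klk13), a pattern found in 10.1% of all genes, and all lay below them in Klk5, a pattern found in 9.25% of all genes. The 10 genes were chosen with earlier results of these data known, so their counts are not independent support. In a whole-tissue sample, more cells that make a transcript and more transcript per cell cannot be told apart.

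**Figure D1:**
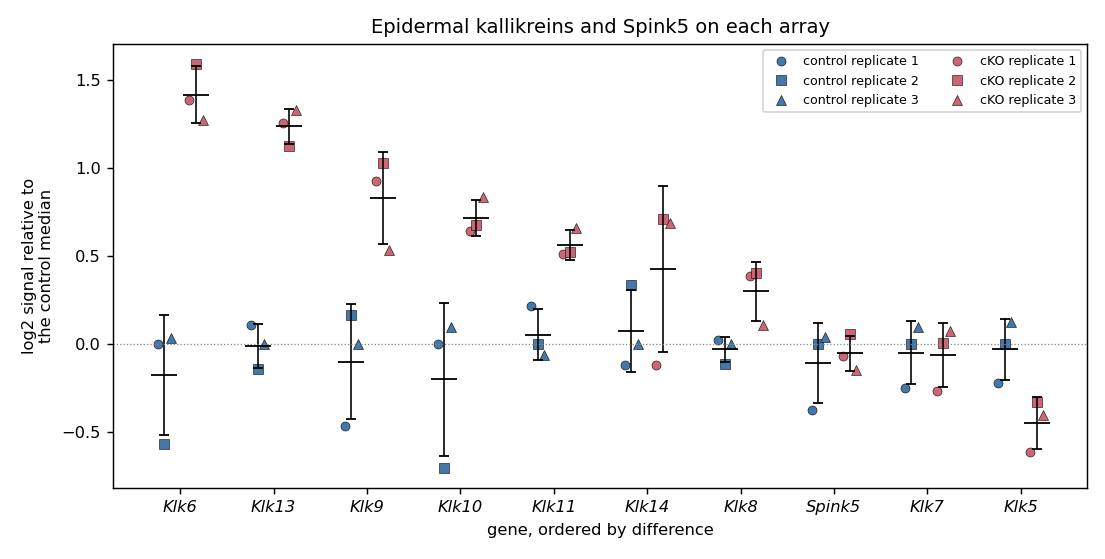
Log2 signal of each gene relative to its control median on the 3 control arrays (blue) and the 3 cKO arrays (red), with marker shapes for replicates and bars for the mean ± SD. Klk6 and Klk13 show the widest gap between groups, Klk7 and Spink5 overlap around 0, and Klk5 is the gene whose cKO arrays all lie below its controls.

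Klk6 encodes a trypsin-like protease also known as neurosin, which is made in brain as well as in epithelia. Its values were 0, -0.57 and 0.03 on the control arrays against 1.38, 1.59 and 1.27 on the cKO arrays. The cKO arrays lay close together and far above all controls, of which replicate 2 was lowest. The log2 difference was 1.59 ± 0.23 (limma SE, adjusted p = 0.00236), a 3.02-fold rise with a 95% interval of 2.13 to 4.28. Leaving out each array in turn gave 1.40 to 1.70, with adjusted p between 0.00556 and 0.0205.

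Klk13 encodes another trypsin-like kallikrein, of stratified epithelia. It read 0.10, -0.15 and 0 on the control arrays against 1.25, 1.13 and 1.32 on the cKO arrays. Both groups were tight and did not overlap, with an SD of 0.126 in the controls and 0.101 in the cKO. The rise of 1.25 ± 0.21 (limma adjusted p = 0.00562) corresponds to 2.38-fold (95% interval 1.75 to 3.23). Leaving out 1 array gave differences between 1.18 and 1.31, with adjusted p between 0.0129 and 0.0381. The cluster annotated to Klk13 runs from 50967937 to 51154706 of build mm9 on the plus strand, 186770 bases, and overlaps the clusters of 9 other kallikrein genes. Among these are Klk12 (2.19) and Klk6 (1.59), which limma called higher, and Klk7 (-0.01) and Klk5 (-0.42), which it did not call. The longest cluster of the other kallikreins of the set spans 8913 bases. The files give no probe positions within that span, so the gene behind the signal of this cluster is uncertain. The methods' t-test over all genes, which does not moderate variances, called neither Klk13 (adjusted p = 0.0704) nor Klk6 (0.164).

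The stretches around the annotated start sites are printed for Klk6 and Klk13, the called genes, for Klk5, whose cKO arrays lay lowest, and for Klk7, the one window of the set with a TCF/LEF match. Klk13 and Klk7 were added to this choice after values and matches were seen. The sequences are from RefSeq on build GRCm38.p6, each 300 bases long on the plus strand, from 250 bases before to 50 bases after a start site. Capitals mark letters that some transcription factors are known to bind, on either strand. The pattern for AP-1 was TGANTCA. For TCF/LEF factors, the DNA-binding partners of beta-catenin, it was CTTTGA. The pattern searched for GATA factors was AGATAA. For ETS factors it was CCGGAAG. Klk6 has one window at chr7:43824294-43824593 and another at chr7:43825200-43825499, Klk13 lies at chr7:43712317-43712616, Klk5 at chr7:43842019-43842318 and Klk7 at chr7:43811044-43811343.
Klk6, upstream start site: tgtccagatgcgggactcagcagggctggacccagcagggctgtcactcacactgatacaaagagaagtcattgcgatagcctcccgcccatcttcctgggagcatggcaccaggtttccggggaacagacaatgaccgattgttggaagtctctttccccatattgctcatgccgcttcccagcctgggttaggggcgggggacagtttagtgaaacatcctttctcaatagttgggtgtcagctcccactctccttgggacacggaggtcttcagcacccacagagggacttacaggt
Klk6, downstream start site: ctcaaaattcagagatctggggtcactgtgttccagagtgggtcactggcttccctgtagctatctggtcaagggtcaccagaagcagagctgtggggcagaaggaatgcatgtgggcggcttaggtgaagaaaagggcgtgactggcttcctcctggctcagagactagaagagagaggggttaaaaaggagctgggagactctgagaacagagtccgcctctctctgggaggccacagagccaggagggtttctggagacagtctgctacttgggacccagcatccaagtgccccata
Klk13: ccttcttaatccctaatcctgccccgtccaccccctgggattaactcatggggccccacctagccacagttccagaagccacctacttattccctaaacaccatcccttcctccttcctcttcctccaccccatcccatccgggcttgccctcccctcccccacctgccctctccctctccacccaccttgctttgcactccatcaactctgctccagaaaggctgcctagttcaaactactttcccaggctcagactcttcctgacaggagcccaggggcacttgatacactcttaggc
Klk5: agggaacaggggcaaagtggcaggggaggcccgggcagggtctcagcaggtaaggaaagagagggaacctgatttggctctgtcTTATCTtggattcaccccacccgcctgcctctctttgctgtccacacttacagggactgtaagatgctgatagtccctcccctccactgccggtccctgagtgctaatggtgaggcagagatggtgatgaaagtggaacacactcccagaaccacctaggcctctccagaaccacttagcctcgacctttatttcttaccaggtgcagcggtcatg
Klk7: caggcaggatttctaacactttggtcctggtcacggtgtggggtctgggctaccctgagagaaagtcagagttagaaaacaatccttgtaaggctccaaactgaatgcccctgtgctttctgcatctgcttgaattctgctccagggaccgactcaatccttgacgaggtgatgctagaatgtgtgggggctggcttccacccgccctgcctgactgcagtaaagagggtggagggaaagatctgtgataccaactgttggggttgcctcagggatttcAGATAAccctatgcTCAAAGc

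None of the 4 letter patterns occurred in the windows of Klk6 or Klk13, so these windows hold no capitals. All 9 kallikreins of the set were in the promoter table, with 11 windows. AP-1 letters were found in 0 of the 11, against 7.81% of all 32851 windows of this length. The TCF/LEF pattern occurred in 1 (Klk7, starting 43 bases after the start site), against 16.0% of all windows. GATA letters occurred in 2 (Klk5 and Klk7), against 11.2%, and ETS letters in 1 (Klk10), against 8.86%. No pattern overlapped another in the printed windows. A match describes these letters in these windows and does not show a binding site.

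Klk9 and Klk10 lay next below the called genes. Klk9, a chymotrypsin-like kallikrein, read -0.47, 0.16 and 0 on the control arrays against 0.92, 1.03 and 0.53 on the cKO arrays. The groups were separate, with cKO replicate 3 nearest to the controls, and the difference was 0.93 ± 0.24 (limma adjusted p = 0.0825). Klk10 read 0, -0.71 and 0.09 on the control arrays against 0.64, 0.68 and 0.83 on the cKO arrays. Its groups were also separate, and control replicate 2 was the low array, as in Klk6. The Klk10 difference was 0.92 ± 0.25 (adjusted p = 0.0952), and 0.67 without that array. With array weights, which give less influence to arrays that scatter more, limma called Klk9 (0.85, adjusted p = 0.0310) and Klk10 (1.05, adjusted p = 0.0252).

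Klk11, Klk8 and Klk14 differed by smaller amounts, and none was called. Klk11, a trypsin-like kallikrein, read 0.22, 0 and -0.06 on the control arrays against 0.51, 0.52 and 0.66 on the cKO arrays, a difference of 0.51 ± 0.21 (limma adjusted p = 0.316) with groups that did not overlap. Klk8 encodes neuropsin, a protease of brain and epidermis. It read 0.02, -0.11 and 0 against 0.39, 0.40 and 0.10, a difference of 0.33 ± 0.21 (adjusted p = 0.572), and cKO replicate 3 lay just above the highest control. Klk14, one of the proteases that cleave corneodesmosomes, read -0.12, 0.33 and 0 on the control arrays against -0.12, 0.71 and 0.68 on the cKO arrays. Its groups overlapped, because cKO replicate 1 stood at the level of the lowest control. The difference was 0.35 ± 0.26 (adjusted p = 0.639). It was 0.62 without cKO replicate 1, 0.21 and 0.22 without cKO replicates 2 and 3, and 0.03 with array weights, which gave cKO replicate 1 the highest weight (2.22).

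Klk7 and Klk5, the best known proteases of corneocyte shedding, were not higher. Klk7, a chymotrypsin-like kallikrein named stratum corneum chymotryptic enzyme in humans, read -0.25, 0 and 0.10 on the control arrays against -0.27, 0.00 and 0.07 on the cKO arrays. These values overlapped almost point for point. The difference of -0.01 ± 0.21 (limma adjusted p = 0.987) had a 95% interval of 0.718 to 1.37-fold, so changes within those bounds remain compatible with the values. Klk5, a trypsin-like kallikrein that in humans activates KLK7 and itself, read -0.22, 0 and 0.12 on the control arrays against -0.62, -0.33 and -0.40 on the cKO arrays. All 3 cKO arrays lay below all controls, but the difference of -0.42 ± 0.21 did not pass (adjusted p = 0.457). The 95% interval for Klk5 ran from 0.545 to 1.03-fold.

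Spink5, the gene of LEKTI, read -0.37, 0 and 0.04 on the control arrays against -0.07, 0.05 and -0.15 on the cKO arrays. The groups overlapped fully. Its difference was 0.06 ± 0.21 (limma adjusted p = 0.943), with a 95% interval of 0.754 to 1.44-fold.

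Each kallikrein was also set against Spink5 on the same array, which gives each transcript relative to that of Spink5 and takes no account of whether LEKTI acts on that protease. These ratios rest on the same 6 values per gene given above. The log2 ratio of Klk6 to Spink5, each relative to its own control median, was 0.37, -0.57 and -0.01 on the control arrays against 1.45, 1.54 and 1.42 on the cKO arrays. The cKO arrays had an SD of 0.0612 and lay above all controls, by 1.54 on average. The mean ratio of Klk13 to Spink5 was higher by 1.19, that of Klk9 by 0.87 and that of Klk10 by 0.86, all with groups that did not overlap. The mean ratio of Klk5 to Spink5 was lower by a log2 difference of -0.48, also without overlap, with 0.15, 0 and 0.08 on the control arrays against -0.55, -0.39 and -0.26 on the cKO arrays. For Klk7, Klk8, Klk11 and Klk14 the ratios overlapped between groups, with mean differences of -0.07, 0.27, 0.45 and 0.30. Of the 9 ratios to Spink5, 5 did not overlap between groups. Over all other genes on the array, the ratio to Spink5 lay above all controls in 4.5% and below them in 11.2%. Each of the 5 had p = 0.10 in a two-sided exact permutation test, the smallest that 3 against 3 arrays allow (0.144 after adjustment over 13 ratios, of which 4 were between kallikreins and restate the differences above), so this test could not reach 0.05.

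**Figure D2:**
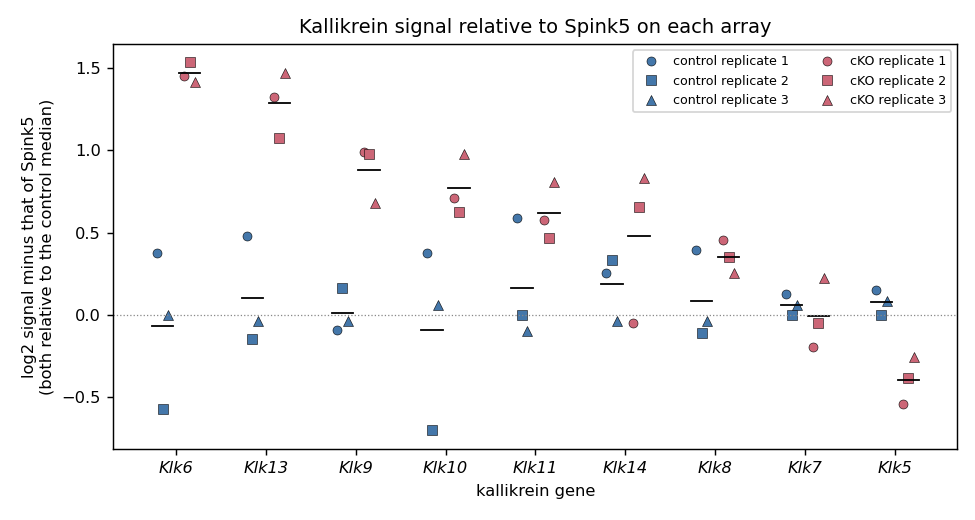
Log2 signal of each kallikrein minus that of Spink5 on the same array, both relative to their control medians, for control (blue) and cKO (red) arrays, with lines at group means. Klk6, Klk13, Klk9 and Klk10 lie above their controls on all cKO arrays, Klk5 lies below, and the other 4 overlap.

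The 9 kallikreins sit side by side in 1 locus, and their differences did not follow a smooth course along it. By the mm9 start positions of the clusters, the order is Klk14, Klk13, Klk12, Klk11, Klk10, Klk9, Klk8, Klk7, Klk6 and Klk5. The start of Klk14 is at 50945674 and the end of Klk5 at 51106551. Klk6 (1.59) lies between Klk7 (-0.01) and Klk5 (-0.42). At the other end Klk14 (0.35) neighbours Klk13 (1.25). The cluster of Klk12, a trypsin-like kallikrein outside the set, lies inside the span annotated to Klk13, so the signals of these genes may not be separate. Klk12 had the highest difference among the 24 kallikrein genes on single-gene clusters, at 2.19 ± 0.21 (limma adjusted p = 9.86e-05). It read -0.21, 0.27 and 0 on the control arrays against 2.22, 2.14 and 2.27 on the cKO arrays. Klk12 was the 1 called of 14 measured genes in the list of other kallikreins (median 0.09), against 1.24% of all genes called higher. The remaining genes of that list lie beyond Klk5 and are mostly the rodent Klk1b genes, which are near-identical copies whose signals may be shared. Of these, Klk1b4 differed by -0.77 ± 0.21 (adjusted p = 0.105) and Klk1b3, the gamma subunit of nerve growth factor, by -0.79 ± 0.27 (adjusted p = 0.214). In both genes, 2 of the 14 measured, all cKO arrays lay below the controls, against 9.25% of all genes, and nothing is read from this.

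**Figure D3:**
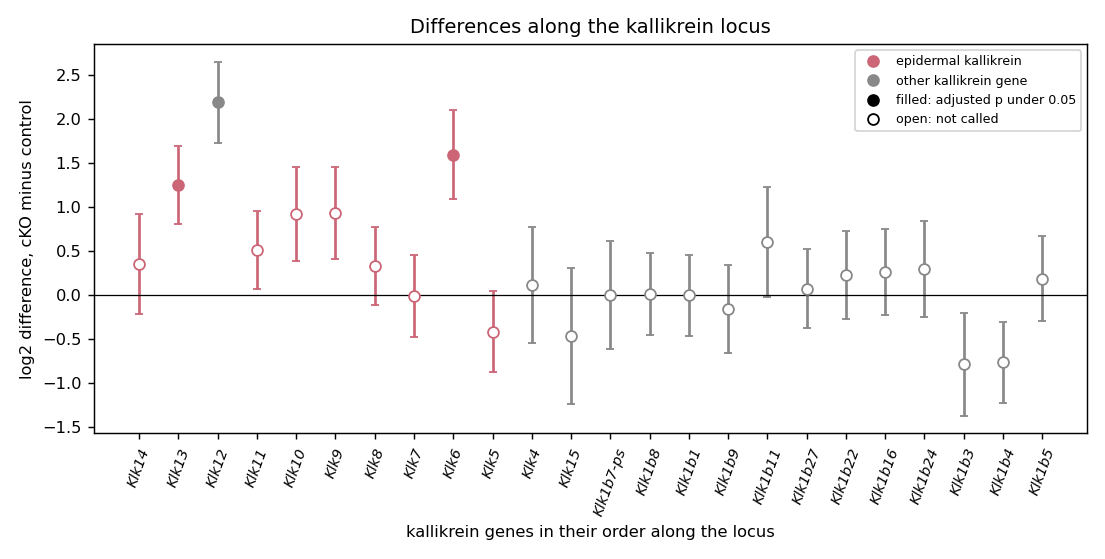
Log2 difference (cKO minus control) with its 95% interval for the 24 kallikrein genes on single-gene clusters, in their order along the locus. Red marks the 9 epidermal kallikreins, grey the others, and filled points (Klk13, Klk12 and Klk6) passed an adjusted p of 0.05.

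Other inhibitors of serine proteases included called genes. Of 17 measured genes in a list of epidermal protease inhibitors, 4 were called higher and 0 lower, with a median of 0.35. The shares over all genes were 1.24% higher and 0.697% lower. This list was chosen with earlier results of these data known, so its counts are not independent support. Slpi, the secretory leukocyte protease inhibitor, read -1.25, 0.27 and 0 on the control arrays against 2.78, 1.90 and 3.29 on the cKO arrays, a rise of 2.99 ± 0.40 (limma adjusted p = 0.00132). The whey acidic protein family genes Wfdc18, Wfdc12 and Wfdc2 rose by 1.43 ± 0.21, 1.24 ± 0.20 and 1.66 ± 0.33 (adjusted p = 0.00241, 0.00520 and 0.0192). Wfdc12 was tight, at -0.14, 0.06 and 0 against 1.18, 1.20 and 1.27. The call of Wfdc2 ended without cKO replicate 3 (adjusted p = 0.172).

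Further proteases of the shedding cascade and the proteins of the corneodesmosome were also counted. Of 16 other proteases, which include the membrane serine proteases that activate kallikreins or act beside them, 1 was called higher and 0 lower, with a list median of 0.25. All cKO arrays lay above the controls for 3 of the 16 and below them for 1. The called gene was Prss27, a serine protease also called marapsin, which rose by 1.64 ± 0.23 (limma adjusted p = 0.00203) with -0.16, 0.22 and 0 on the control arrays against 1.91, 1.29 and 1.78 on the cKO arrays. Tmprss11e, a membrane serine protease, differed by 0.45 ± 0.21 (adjusted p = 0.422) and Plau, the urokinase gene, by -0.76 ± 0.37 (0.432). Of 11 desmosome and corneodesmosome genes limma called 0, and 0 had an unadjusted p under 0.05 (0 also by the methods' t-test), with differences between -0.38 (Dsc3, a desmosomal cadherin) and 0.34 (Dsg3, another). Pkp1, a desmosome plaque protein, differed by 0.29 ± 0.20 (adjusted p = 0.613). For 5 of the 11 (Dsg3, Pkp1, Ppl, Dsg1b and Dsp) all cKO arrays lay above the controls, against 10.1% of all genes, and for Dsc3 all lay below them, against 9.25%. With 1.24% of all genes called higher and 0.697% lower, 1 call among 16 genes and 0 among 11 are near the background, and nothing is read from them.

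Of 12 genes listed as targets, effectors or partners of kallikrein activity in skin, 1 was called higher and 0 lower, with a list median of 0.18. Over all genes 1.24% were called higher and 0.697% lower, and nothing is read from 1 call among 12. Il1b, an inflammatory cytokine made as a precursor, read 0, -0.64 and 0.47 on the control arrays against 1.76, 1.47 and 3.52 on the cKO arrays, a rise of 2.31 ± 0.45 (limma adjusted p = 0.0163). Its highest value was on cKO replicate 3, and the call ended without that array (adjusted p = 0.0505), without control replicate 1 (0.123) and with robust variances (0.130). F2rl1, which encodes the protease-activated receptor PAR2 that KLK5 can cleave, read 0, -0.04 and 0.43 on the control arrays against -0.75, -0.30 and -1.23 on the cKO arrays. Its groups did not overlap, but the difference of -0.89 ± 0.26 did not pass (adjusted p = 0.136). Il18, another cytokine, differed by -0.40 ± 0.23 (adjusted p = 0.523).

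**Figure D4:**
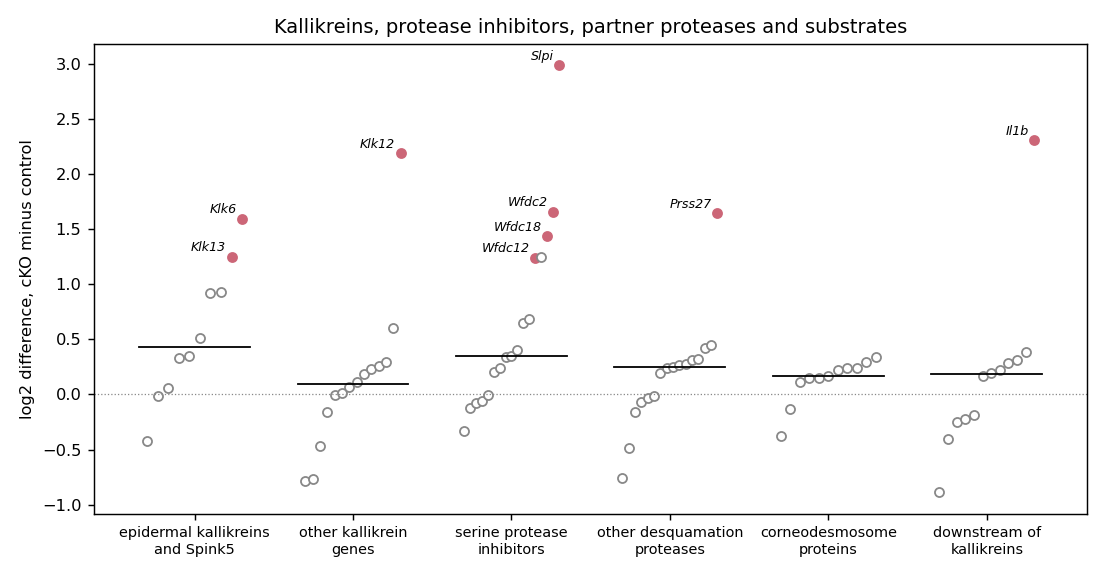
Log2 difference (cKO minus control) of every measured gene in 6 groups, each point a gene, with lines at group medians and filled, named points for genes with an adjusted p under 0.05. Slpi, Il1b and Klk12 stand highest, and the corneodesmosome proteins hold no called gene.

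Markers of other cell types differed beside these genes. The lists were chosen with earlier results of these data known, so their counts are not independent support. Over all genes, limma called 1.24% higher and 0.697% lower. Of 6 genes listed for wound keratinocytes all 6 were called higher, from 1.06 (Krt6a) to 5.05 (S100a8). The others were Krt17 at 1.08, Krt6b at 1.31, Krt16 at 1.37 and S100a9 at 4.89. The mean of the 6 genes per array ranged from -0.04 to 0.09 in the controls and from 2.39 to 2.56 in the cKO. S100a8 and S100a9 weigh most in that mean, and arrays of whole tips do not show which cells made these transcripts. The call of Krt6a ended without control replicate 3 or cKO replicate 1 or 3 (adjusted p = 0.0701, 0.0633 and 0.0567), and that of Krt17 ended without any 1 array other than cKO replicate 2, with adjusted p up to 0.124. In the granular layer, where kallikreins are made, limma called 2 of 10 markers lower, Ivl by -1.68 ± 0.31 and Flg2 by -1.23 ± 0.27, and 0 higher. Tgm3 differed by 0.68 ± 0.20 and was not called (adjusted p = 0.132). The list was mixed (median -0.11). All cKO arrays lay above the controls for 2 of the 10 (Tgm3 and Tgm1) and below them for 3 (Ivl, Flg2 and Krt2). These patterns were found in 10.1% and 9.25% of all genes. With array weights (adjusted p = 0.0380) and by the methods' t-test (0.0455) Tgm3 was called higher, and that t-test called neither Ivl (0.318) nor Flg2 (0.320). Without cKO replicate 3 neither Ivl (adjusted p = 0.0725) nor Flg2 (0.205) was called, and the same held without control replicate 3 (0.0549 and 0.148). Ivl was also not called without control replicate 1 (0.0549), nor Flg2 without control replicate 2 (0.0696) or cKO replicate 1 (0.111). The mean of the granular list lay between -0.21 and 0.07 on the control arrays and between -0.45 and -0.07 on the cKO arrays. Of 7 sebaceous genes 5 were called lower, with array means from -0.70 to 0.30 in the controls and from -3.03 to -1.97 in the cKO. These 5 were Fa2h, Far2, Elovl3, Scd1 and Mc5r, and with robust variances Far2 (adjusted p = 0.144) and Elovl3 (0.0777) were not called. For Mc5r the adjusted p was 0.0574 when control replicate 1 was left out and 0.0647 when cKO replicate 3 was. Of 7 basal markers Krt15 was the 1 called, by -1.45 ± 0.23, while Krt14 differed by 0.37 ± 0.20 and Col17a1 by -0.31 ± 0.22. Limma called 0 of 7 nail and hair matrix genes (4 at an unadjusted p under 0.05), 0 of 7 eccrine sweat gland genes (1), 0 of 6 Schwann cell genes (1) and 0 of 6 neutrophil genes (0), and the methods' t-test also called 0 of each. Such counts cover the listed genes only and do not show whether the cells, neutrophils included, changed in number. The array means of the nail and hair matrix list ranged from -0.07 to 0.11 in the controls and from -0.73 to 0.07 in the cKO. For sweat gland they ranged from -0.14 to 0.13 and from -0.23 to -0.18, for Schwann cells from -0.20 to 0.44 and from -0.38 to 0.07, and for neutrophils from -0.20 to 0.31 and from 0.01 to 0.14. Whether these cell types had a part in the kallikrein differences was not tested.

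Across the 6 arrays, the gene most like Klk6 by Pearson correlation was Fabp4, a fatty acid binding protein (r = 0.993), followed by Ddx54 (0.991) and Tmprss11b (0.988). For Klk13 the closest were Mmp13, a collagenase (0.998), Vmn1r49 (0.998) and Nlrp9c (0.998). The points share 6 arrays that fall into 2 groups, so these values mostly describe the same step between groups. Tmprss11b, a membrane serine protease, differed by 3.34 ± 0.32 and Mmp13 by 2.73 ± 0.23, while Ddx54 differed by 0.26 ± 0.20.

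The authors' deposited table of clusters past a 1.5-fold change held 4 of the 10 genes, all higher, with fold scores of 3.02 for Klk6, 2.38 for Klk13, 1.91 for Klk9 and 1.89 for Klk10. Their deposited table of significant clusters held 3 of these, with corrected p-values of 0.00698 for Klk13, 0.0175 for Klk6 and 0.0485 for Klk9. That correction ran over the clusters left after the authors' filters, in contrast to the 20793 genes used above. The filters included the 1.5-fold change between the same groups. Clusters thus entered the correction through the difference being tested, so these corrected p-values are too small as measures over all genes. Klk9 is the gene of the set on which the authors' deposited table and limma differ.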

How the data were processed

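The measurements are 6 MoGene 1.0 ST arrays, 1 per digit tip sample. Per the deposited methods sheet and the file headers, the authors summarised and quantile-normalised with PLIER16 and gave log2 values relative to each cluster's control median (annotation na31, build mm9). The authors' deposited tables also give signed fold scores, and p-values from a test named differently in the header (unpaired t-test) and in the methods text (ANOVA), after a filter on the bottom 20th percentile and a 1.5-fold filter.

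The value table was analysed and differed from the workbook by at most 5.0e-05. Of 28853 clusters, 22971 carried 1 gene and were averaged per gene, with symbols updated through Entrez identifiers (RefSeq, GRCm38.p6), and 21924 matched. The 2946 shared and 2936 unnamed clusters did not enter the gene-level test. Limma 3.58.1 in R 4.3.3 (prior degrees of freedom 8.79) compared 3 cKO with 3 control arrays with no covariate, and was tested on simulated data. The number of arrays limits the precision.

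Members and lists were chosen with earlier results of these data known. Named genes are all members, Ctnnb1, every called gene and the 3 of smallest p per list, and the 3 genes most correlated with the 2 members of smallest p. For the marker lists not called, only counts and array means are given. Cdsn and Casp14 stand both among the granular markers and in another list, and Camp both among neutrophil and downstream genes. Klk1, Klk1b21, Klk1b26, Serpina1b, Dsg1a, Flg and Hrnr lay on no single-gene cluster and were not analysed here. No protein sequence was used. Alternatives were centred arrays, a replicate block, array weights, robust variances, clusters tested singly, the authors' percentile filter, a fold minimum, the methods' t-test and leaving out each array.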

Additional observations from a re-analysis of the deposited data

How the results depend on the processing

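Klk6 and Klk13, whose cluster overlaps those of other kallikreins, were the 2 genes of the set called higher, and 0 were called lower. The same held under array centring, robust variances, single clusters, the authors' percentile filter and each left-out array (2 in every case). A 1.5-fold minimum, added to the same fit, could not change these calls, since both genes rose by more (3.02-fold and 2.38-fold). Robust variances, single clusters and the percentile filter left the differences of both genes as they were and changed only their SE and adjusted p. That filter could also keep a gene through its cKO arrays alone. Array weights gave 4 higher, with Klk9 and Klk10 added, and the methods' t-test gave 0. Over all genes limma called 258 higher and 145 lower. Array weights gave 523 and 305, the methods' t-test 10 and 3, and the percentile filter 309 and 48, a filter set on control-centred values, in which clusters that fell are the low ones, and which also dropped Klk5. The share of calls that were higher was 64.0%, and 86.6% after that filter. Leaving out 1 array gave 133 to 261 higher and 59 to 165 lower, lowest without cKO replicate 3 (133 and 59), with 75 lower without control replicate 1 and 81 without control replicate 3. The cause of these shifts was not tested.

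The sign of Klk7 turned when control replicates 2 or 3, or replicate 1 of the cKO, were left out (range over left-out arrays -0.1132 to 0.0886), and that of Spink5 with array weights (-0.024) or without control replicate 1 (range -0.074 to 0.1319), with adjusted p of at least 0.80 for Klk7 and 0.865 for Spink5. Of 22 called genes outside the set, 20 were not called by the methods' t-test. Deviations of same-numbered arrays from their group means correlated at 0.042, 0.138 and -0.085. Those of differently numbered arrays correlated between -0.187 and 0.138. The labels do not say whether samples were paired by number, and correlations over 3 arrays per group cannot settle it. With the replicate number as a block, the set again gave 2 higher and 0 lower, and 357 genes were called higher and 218 lower over all genes.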
